A study of Mus musculus with 14 samples.

Results

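Expression of 8 genes of presomitic and posterior mesoderm was followed through 14 RNA sequencing libraries of mouse embryoid bodies, which are floating clusters of differentiating stem cells. The genes are Msgn1, Hes7, Ripply2, Meox1, Tcf15, Cdx1, Cdx2 and Cdx4. They were taken as a named list and found by symbol among the 36047 genes of the deposited tables, and all 8 were present. The embryoid bodies came from the stem cell line iHA-Foxk1, used as control, and from a Foxk1 KO line, each differentiated in a mesoderm-promoting medium. Foxk1 encodes a forkhead transcription factor. The control titles of days 3 and 5 carry the name iHAFoxk1 and the letters ND, whose meaning is not given, while those of day 10 read only Control and are tied to iHA-Foxk1 by the protocol text. Control and Foxk1 KO embryoid bodies were collected at days 3, 5 and 10, and a further day 10 group came from the Foxk1 KO line treated with IWR1, an inhibitor of the canonical Wnt pathway that acts by stabilising Axin. There were 7 groups with 2 libraries each. No control was treated with IWR1, so IWR1 against control joins the difference of the lines with that of the treatment. Each genotype was 1 line, so loss of Foxk1 and any further difference of the lines cannot be told apart. Nothing in the labels says that replicate libraries are separate cultures, and the p-values then measure only the spread between these libraries.

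Presomitic mesoderm is the tissue at the tail end of the embryo that buds off somites, the blocks from which vertebrae and skeletal muscle form. Wnt and FGF signals from the primitive streak and tail bud keep its cells immature, with Msgn1 acting downstream of Wnt3a and of the T-box factors T and Tbx6, while a Notch-driven oscillator that includes Hes7 times each new boundary and Ripply2 closes the programme as a somite forms. Meox1 and Tcf15 then act in the somite itself. The caudal-type homeobox genes Cdx1, Cdx2 and Cdx4 respond to Wnt, FGF and retinoic acid, activate trunk Hox genes and sustain growth of the posterior axis. Cdx2 is also used by trophoblast and by the gut epithelium, so its RNA in an embryoid body need not come from mesoderm.

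The sequence just before the start is shown for Msgn1, which had 111 counts in day 3 control and none in day 3 KO, and for Cdx2, whose level in CPM spanned the widest range. Both stretches are from RefSeq on GRCm38.p6, the mm10 build, on the minus strand and written 5′ to 3′. Each stops before the annotated transcript, and capitals mark the motif matches. A RefSeq window was found for 5 of the 8 genes.
Msgn1 (chr12:11208973-11209198): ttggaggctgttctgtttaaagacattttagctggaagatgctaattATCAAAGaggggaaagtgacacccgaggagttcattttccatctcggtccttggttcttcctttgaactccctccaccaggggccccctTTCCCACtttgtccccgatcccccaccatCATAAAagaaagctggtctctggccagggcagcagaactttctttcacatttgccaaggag
Cdx2 (chr5:147307271-147307499): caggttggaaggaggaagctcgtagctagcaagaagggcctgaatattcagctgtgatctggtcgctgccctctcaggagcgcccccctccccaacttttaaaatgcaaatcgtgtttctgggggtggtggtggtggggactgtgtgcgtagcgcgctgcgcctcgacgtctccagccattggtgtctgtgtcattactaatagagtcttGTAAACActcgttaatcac
Of the 6 motifs searched on both strands (TCF/LEF as CTTTGAT, T-box as GGTGTGA, forkhead as GTAAACA, CDX as TTTATG, RBPJ as GTGGGAA and E-box as CACGTG), the Msgn1 stretch held TCF/LEF, RBPJ and CDX letters 203, 114 and 85 bases before the RefSeq start, all on the opposite strand. The Cdx2 stretch held the forkhead letters 40 bases before its start. Among 32851 RefSeq windows of 300 bases, 3.73% held the TCF/LEF letters, 6.38% the RBPJ letters, 11.9% the CDX letters and 3.65% the forkhead letters. A match is a description of the letters, and no binding was measured.

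The days 3 and 5 libraries held 10574194 to 11621032 estimated counts and the day 10 libraries 34466708 to 52747273. Levels are in CPM, which puts libraries of unequal depth on 1 scale, as mean ± SD over n = 2. As a check of the labels, Foxk1 had 81.4 ± 6.97 CPM in day 3 control against 16.3 ± 0.209 CPM in day 3 KO, and 133.5 ± 0.812 against 35.9 ± 3.26 CPM at day 5. At day 10 the libraries labelled Foxk1 KO held 71.3 and 41.8 CPM against 65.0 and 80.1 in control (log2 fold change -0.36 ± 0.39, adjusted p = 0.722), so the control and KO levels of Foxk1 overlapped. With IWR1 they were 26.4 and 52.9 CPM. Which part of the gene the KO lacks is not stated in the labels, so directions at day 10 rest on the labels alone. Of the germ layer markers, T, a streak and posterior mesoderm factor, reached 823 ± 37.7 CPM in day 3 control and 65.8 ± 14.5 in day 3 KO. At day 5 T was at 9.63 ± 3.81 CPM in control and 32.8 ± 17.15 in KO. Sox1 and Pax6, neural markers, were near 0 in control of days 3 and 5. They were at 0.132 and 0.220 CPM at day 3 and 0.0994 and 0.0992 at day 5. Pou5f1, a pluripotency factor, was at 1023 ± 2.11 CPM in day 3 control, 19.6 ± 1.65 in day 5 control and 57.4 ± 6.36 in day 10 control. The replicates of day 5 KO and of every day 10 group lay further apart than those of the other groups, with a chi-square per degree of freedom of 20.4 at day 5 KO and 51.9 to 160 at day 10 against 1.87 to 3.91. Fold changes are log2 values ± SE from edgeR's quasi-likelihood test, and an adjusted p under 0.05 over all genes tested is a call. In bulk RNA, fewer cells of a type and less RNA per cell cannot be told apart.

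**Figure D1:**
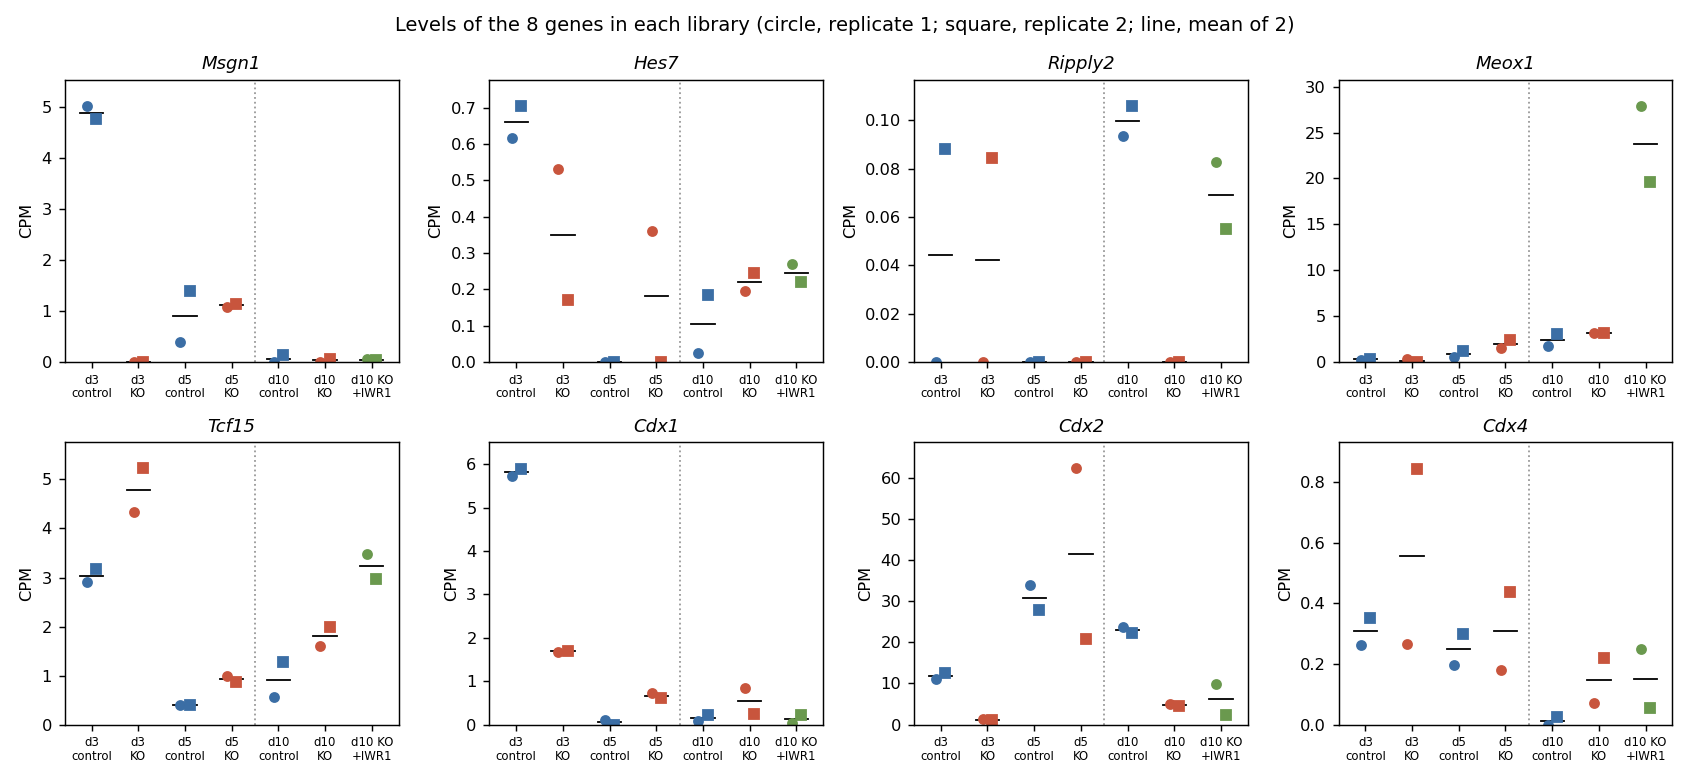
Level of each gene (CPM, linear axes from 0, a scale per gene) in the 14 libraries, circles for replicate 1, squares for replicate 2 and a line for the mean of 2. The dotted line parts the days 3 and 5 table from the day 10 table, which were scaled separately. Msgn1 and Cdx1 are highest in day 3 control, Cdx2 is spread widely in day 5 KO, and Meox1 is highest with IWR1.

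At day 3 the KO embryoid bodies held less Msgn1, Cdx1 and Cdx2 RNA than control, while Tcf15 was not lowered. All 3 of these genes were called lower, of 5 tested. Over all genes tested 32.9% were called in this comparison, so a call as such is common here. At day 5 Cdx1 was called higher in KO, on 15 against 1 counts, and was the only call among 5 tested, with 43.5% of all genes called. From day 3 to day 5, 3 of the 5 were called in control, all lower (60.8% of all genes called). In KO 5 of 5 were called, with Msgn1, Meox1 and Cdx2 higher and Tcf15 and Cdx1 lower (53.8% of all genes called). Meox1 passed the filter on low counts mainly through day 5 KO, with 44 counts against 3 in day 3 KO. Its place in this count is thus not independent of its rise. The difference between the KO effects of the 2 days was called for Msgn1 and Cdx1, both higher at day 5 (24.2% of all genes called). Hes7, Ripply2 and Cdx4 had too few counts to be tested.

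Msgn1 (ENSMUSG00000047002.2, chromosome 12, 11208360 to 11208972), a basic helix-loop-helix factor that drives differentiation of presomitic mesoderm, was counted 57 and 54 times in the day 3 control libraries and 0 and 0 times in the day 3 KO libraries. No count was seen in KO, which allows up to 3 counts over the group, and the level was at least 37.7-fold lower than in control (adjusted p = 0.000345). At day 5 there were 4 and 14 counts in control and 12 and 13 in KO. The KO libraries fell within the control pair, and the difference was 0.31 ± 0.57 (adjusted p = 0.691), with its sign turned to -0.32 when the first day 5 control library was left out. Between the days Msgn1 fell by 2.44 ± 0.50 on the log2 scale in control (adjusted p = 0.00293) and was at least 8.56-fold higher in KO (adjusted p = 0.00257). Control started high and came down, and KO started without a count and came up. The difference between the KO effects had an adjusted p of 0.00162. At day 10 it had at most 5 counts in any library and was not tested.

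Hes7 (ENSMUSG00000023781.2, chromosome 11, 69120404 to 69124055), the oscillating repressor of the segmentation clock, was close to the detection limit throughout. It had 7 and 8 counts in day 3 control and 6 and 2 in day 3 KO. At day 5 control had 0 and 0 counts and KO 4 and 0, and at day 10 there were 1 and 7 in control, 8 and 9 in KO and 13 and 8 with IWR1. Without the filter on low counts the fall of Hes7 in control from day 3 to day 5, at least 4.44-fold, was called (adjusted p = 0.0134), while DESeq2 did not call it (0.0564). The day 3 control libraries lay above both day 3 KO libraries, but by 1 count in the nearest pair. Ripply2 (ENSMUSG00000047897.10, chromosome 9, 87015537 to 87019917), a repressor that ends the presomitic programme at the forming boundary, had at most 1 count in any library of days 3 and 5. At day 10 it had 4 and 4 counts in control, 0 and 0 in KO and 4 and 2 with IWR1. These counts give at least 2.57-fold less in KO than in control and at least 1.84-fold more with IWR1 than in KO, from counts alone. Without the filter on low counts neither was called (adjusted p = 0.284 and 0.233).

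Tcf15 (ENSMUSG00000068079.5, chromosome 2, 152143561 to 152149097), also called paraxis and needed for somites to become epithelial, took another course than Msgn1. It was at 2.91 and 3.17 CPM in day 3 control and at 4.33 and 5.24 CPM in day 3 KO. At day 5 it was at 0.396 and 0.397 CPM in control and 0.993 and 0.873 CPM in KO. Both KO libraries lay above both control libraries on each day, but neither difference was called (0.66 ± 0.29, adjusted p = 0.112 at day 3, and 1.21 ± 0.47, adjusted p = 0.0653 at day 5). Fitted on the day 3 groups alone, the day 3 difference was called (adjusted p = 0.0279), the only call among 9 alternative fits. Tcf15 fell between days 3 and 5 in both lines, by 2.90 ± 0.40 in control (adjusted p = 0.000218) and by 2.35 ± 0.33 in KO (adjusted p = 0.000328). Early Tcf15 is also known from pluripotent cells that are being primed to differentiate, and at day 3 Pou5f1 was at 1023 ± 2.11 CPM in control and 1072 ± 37.2 in KO. The part of such cells in the Tcf15 levels was not tested.

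Meox1 (ENSMUSG00000001493.9, chromosome 11, 101877510 to 101894374), a homeobox gene of the somite and its sclerotome, was scarce at day 3, with 2 and 4 counts in the control libraries and 3 and 0 in the KO libraries. The day 5 counts were 5 and 12 for control and 17 and 27 for KO. The groups did not overlap at day 5, yet the difference of 1.20 ± 0.65 was not called (adjusted p = 0.163). In KO the day 5 level was 15.1 times that of day 3, with an exact Poisson 95% interval of 4.83 to 75.8 that covers counting error only (adjusted p = 0.00479). In control the same step had an adjusted p of 0.127.

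Cdx1 (ENSMUSG00000024619.8), a direct Wnt and retinoic acid target that patterns vertebrae, was at 5.72 and 5.90 CPM in day 3 control and at 1.68 and 1.69 CPM in day 3 KO. The replicates all but coincided, and KO was lower by -1.78 ± 0.34 (adjusted p = 0.0039). At day 5 control kept 1 and 0 counts and KO 8 and 7, a ratio of 13.4 (exact Poisson 95% interval 2.06 to 565) with an adjusted p of 0.00815. The order of the lines was thus the reverse of day 3, at a far lower level, and the difference between the KO effects had an adjusted p of 0.00239. DESeq2 did not call the day 5 difference (adjusted p = 0.0645). From day 3 to day 5 control went from 132 counts to 1, which is 117-fold lower (20.7 to 4660, adjusted p = 1.62e-05). KO fell by 1.33 ± 0.43 (adjusted p = 0.0268), a call that was lost in DESeq2 (adjusted p = 0.138) and when either day 3 KO library or the second day 5 KO library was left out (adjusted p = 0.0613 to 0.0938). At day 10 Cdx1 had 4 and 8 counts in control, 35 and 9 in KO and 2 and 8 with IWR1, and it was not tested because of the filter on low counts.

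Cdx2 (ENSMUSG00000029646.3, chromosome 5, 147300805 to 147307270), which activates trunk Hox genes in the tail bud, was at 11.0 and 12.4 CPM in day 3 control and at 1.33 and 1.10 CPM in day 3 KO. The groups were far apart, with a log2 fold change of -3.26 ± 0.85 (adjusted p = 0.0389). The call was lost when any 1 library of day 3 was left out (adjusted p = 0.104 to 0.157) and without the filter on low counts (0.0897), while the fold change stayed between -3.40 and -3.13. At day 5 control stood at 33.8 and 27.8 CPM and KO at 62.2 and 20.8 CPM. The KO libraries lay on either side of the control pair, so no direction can be read at day 5: the difference of 0.43 ± 0.50 (adjusted p = 0.535) became 1.00 without the second KO library and -0.57 without the first, and each of these was called (adjusted p = 2.27e-08 and 0.0019). Between days 3 and 5 Cdx2 rose by 5.09 ± 0.76 in KO (adjusted p = 0.00357) and was higher by 1.40 ± 0.55 in control without a call (adjusted p = 0.0807). The control step was called in 2 of 9 alternative fits, DESeq2 (adjusted p = 0.000916) and the compared groups alone (4.82e-09). The difference between the KO effects was 3.69 ± 1.00 (adjusted p = 0.0548). It was called in 4 of 12 alternative fits: DESeq2 (2.02e-08), the replicate number as a block (0.0456) and without either day 5 KO library. It was not called with another library scaling (RLE, 0.056) or without the filter on low counts (0.123).

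Among the Cdx genes levels can be set side by side per kilobase of annotated exon. In day 3 control Cdx2 was at 4.87 and 5.49 CPM per kilobase, Cdx1 at 3.27 and 3.37, and Cdx4 at 0.135 and 0.179. In day 3 KO Cdx1 was the higher of the pair, at 0.960 and 0.966 CPM per kilobase against 0.587 and 0.486 for Cdx2. Cdx2 led in every library of days 5 and 10. Cdx4 (ENSMUSG00000031326.2, chromosome X, 103321398 to 103330592), the member most tied to the posterior axis and early blood, had between 2 and 10 counts in each library of days 3 and 5. At day 10 it had 0 and 1 counts in control, 3 and 8 in KO and 12 and 2 with IWR1. Without the filter on low counts neither contrast with control was called (adjusted p = 0.347 for KO and 0.19 for KO with IWR1).

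At day 10 Meox1 was the gene that stood out, in the libraries treated with IWR1. It was at 1.68 and 3.07 CPM in control, 3.15 and 3.14 in the libraries labelled Foxk1 KO and 27.9 and 19.6 with IWR1. Both treated libraries lay far above the other 4. Meox1 was higher by 2.92 ± 0.36 than in KO (adjusted p = 0.0112) and by 3.32 ± 0.37 than in control (adjusted p = 0.0067), and each of these was called in all 10 alternative fits. These comparisons share the treated libraries and are not independent. KO against control was 0.41 ± 0.36 (adjusted p = 0.631).

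Tcf15 was at 0.560 and 1.27 CPM in day 10 control, 1.60 and 2.00 CPM in KO and 2.98 to 3.48 CPM with IWR1. The groups followed one another without overlap, but no step was called in the edgeR fit: KO against control was 0.98 ± 0.45 (adjusted p = 0.3), IWR1 against KO 0.85 ± 0.43 (0.217) and IWR1 against control 1.82 ± 0.45 (0.0548). The last of these was called in 3 of 10 alternative fits, among them DESeq2 (0.00577) and no filter on low counts (0.00688). It was not called with another library scaling (RLE, 0.0554) or the replicate number as a block (0.073).

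Cdx2 was at 23.7 and 22.2 CPM in day 10 control, 4.95 and 4.43 CPM in KO and 9.77 and 2.43 CPM with IWR1. All 4 libraries labelled Foxk1 KO, treated or not, lay below both controls. The difference was -2.29 ± 0.59 for KO (adjusted p = 0.0816) and -1.90 ± 0.58 for KO with IWR1 (adjusted p = 0.0865), and neither was called. The KO difference was called in 3 of 10 alternative fits. These were DESeq2 (adjusted p = 0.000305), no filter on low counts (0.0491) and the compared groups alone (0.00735). It was not called with another library scaling (RLE, 0.0794), the replicate number as a block (0.0654) or any library left out. The difference of KO with IWR1 was also called in 3 of 10. These were DESeq2 (0.00328) and the fits without the first treated library (log2 fold change -3.24) or the second (-1.23). The treated libraries lay on either side of the untreated KO pair, so IWR1 against KO had no stable sign (0.39 ± 0.57, adjusted p = 0.66).

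In the day 10 tests edgeR called 0 of the 3 genes tested in KO against control, where 5.27% of all genes were called. At an unadjusted p under 0.05 there was 1 of 3, and DESeq2 called 1 of 5 tested, Cdx2 in each case. DESeq2 called 1978 of 17371 genes in this comparison. IWR1 against KO and IWR1 against control each had 1 call of 3, Meox1, where 13.9% and 9.12% of all genes were called.

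Cdx2 was read beside genes of the tissues that use it. The summed level of 21 trunk and posterior Hox genes was 1.14 to 1.23 CPM in day 3 control and 2.28 to 3.18 in day 3 KO, so these genes were near 0 while Cdx2 was expressed in control. At day 5 the Hox sum was 109 to 125 CPM in control and 23.4 to 86.4 in KO, and the KO library with the higher Cdx2 level also had the higher Hox sum. At day 10 it ran the other way: Cdx2 was lower in the libraries labelled Foxk1 KO, while the Hox sum was 179 to 212 CPM there against 47.5 to 56.1 in control, and 12 of 21 Hox genes were called, all higher (median log2 fold change 1.88, against 0.02 over all genes tested). Hoxa10, which patterns the lumbar region, was at 45.4 ± 10.0 CPM in KO and 7.61 ± 1.30 in control (2.58 ± 0.26, adjusted p = 0.00847), and Hoxc10 at 37.7 ± 0.069 and 3.98 ± 0.778 (3.24 ± 0.46, adjusted p = 0.017).

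Of 15 genes of hindgut and intestine, the summed level was 8.31 to 11.7 CPM at day 3, with the fatty acid carriers Fabp1 and Fabp2, the mucin gene Muc2 and the trefoil peptide gene Tff3 at 0 in both groups. At day 10 the sum was 78.5 to 85.2 CPM in control, 39.9 to 76.1 in KO and 11.8 to 19.4 with IWR1. The list includes the posterior Hox genes Hoxa13 and Hoxd13, at 2.71 and 5.38 CPM in day 10 control. They were at 9.55 and 10.1 CPM in KO and 2.855 and 6.58 with IWR1, so part of each sum is Hox RNA. Against control, 3 of 14 tested were called in KO (1 higher, 2 lower) and 7 of 14 with IWR1, all 7 lower. Over all genes, 5.27% and 9.12% were called in these comparisons. Krt20, an intestinal keratin, was at 10.4 ± 1.09 CPM in control, 1.47 ± 0.803 in KO and 1.06 ± 0.323 with IWR1 (KO against control -2.81 ± 0.45, adjusted p = 0.0243). Tff3 was at 31.9 ± 12.9, 12.4 ± 4.24 and 0.0345 ± 0.00979 CPM. Of 13 trophoblast genes, the placental hormone gene Prl3d1 was at 0 in every library, and Tpbpa was at 0 on days 3 and 5. The summed trophoblast level was 676 to 704 CPM in day 3 control and 155 to 180 in day 3 KO. Of 7 tested at day 3, 3 were called, all lower, Gata3, Tfap2c and Eomes, where 32.9% of all genes were called. Most of that sum was Eomes, also a primitive streak gene, at 650.5 ± 17.7 CPM in control and 152.8 ± 17.8 in KO. At day 5 the sum was 1050 to 1120 CPM in control and 366 to 598 in KO. Most of it was Hand1, at 1010 ± 58.2 CPM in control and 331 ± 202 in KO. Of 7 tested at day 5, 6 were called, 4 higher and 2 lower in KO (median 2.19), where 43.5% of all genes were called. The trophoblast sum was 132 to 133 CPM in day 10 control, 127 to 136 in KO and 47.4 to 66.3 with IWR1. The part of gut or trophoblast cells in the Cdx2 level was not tested.

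**Figure D2:**
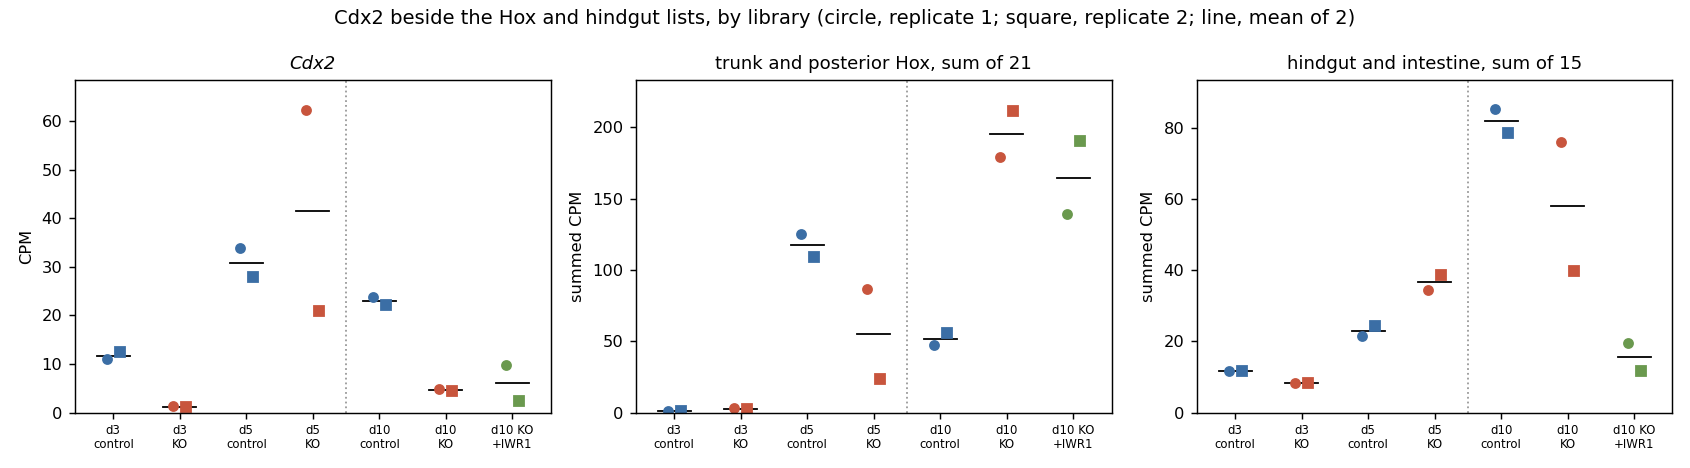
Cdx2 (left, CPM) beside the summed CPM of 21 trunk and posterior Hox genes (middle) and of 15 hindgut and intestine genes (right) in each library, circles for replicate 1, squares for replicate 2, lines for the mean of 2, all axes from 0. The hindgut and intestine list includes Hoxa13 and Hoxd13. The dotted line parts the tables, which were scaled separately. At day 10 the KO libraries have less Cdx2 than control and a Hox sum of 179 to 212 CPM against 47.5 to 56.1.

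The genes around these 8 in the presomitic network moved strongly at day 3, and so did streak and endoderm markers outside it. Mixl1, a streak marker, was at 421 ± 0.351 CPM in day 3 control and 10.1 ± 0.325 in day 3 KO. Sox17 and Foxa2, endoderm markers, were at 9.33 and 46.5 CPM in control and 0.48 and 9.64 in KO. The neural markers Sox1 and Pax6 were higher in KO, at 4.40 and 1.64 CPM against 0.132 and 0.220. Of 12 genes of presomitic specification, 8 were called in day 3 KO, all lower, with a median of -2.98 against -0.01 over all genes. Over all genes tested, 32.9% were called at day 3. Evx1, a homeobox factor of the streak's posterior end, was at 121 ± 3.62 CPM in control and 4.01 ± 0.788 in KO (-4.91 ± 0.14, adjusted p = 1.55e-08). Tbx6, the T-box factor that commits cells to paraxial mesoderm, was at 14.6 ± 0.748 and 1.25 ± 0.266 (-3.53 ± 0.30, adjusted p = 3.21e-05). Rspo3, a secreted enhancer of Wnt signalling, was lower as well (-3.26 ± 0.18, adjusted p = 1.55e-06). Of the 10 tail bud genes tested, 6 were called and all 6 were lower, among them Wnt3a at 9.64 ± 1.56 against 0.346 ± 0.0111 CPM (-4.76 ± 0.50, adjusted p = 0.00013). This list shares T, Wnt3a and Fgf8 with the specification list.

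The Notch and clock genes followed: 8 of 10 tested were called, all lower, with a median of -1.51. This list of 12 also holds Dkk1, Axin2, Dusp4 and Spry2, feedback genes of Wnt or FGF signalling, so its counts are not of Notch genes alone. Dusp4 was at 99.2 ± 5.35 CPM in control and 32.65 ± 1.60 in KO. This and the counts below stand beside 32.9% of all genes called at day 3. Hes1, a Notch target, was at 75.6 ± 1.05 CPM in control and 30.7 ± 2.27 in KO (-1.30 ± 0.08, adjusted p = 3.9e-06). Nrarp, a feedback inhibitor of Notch, fell by 1.42 ± 0.17 (adjusted p = 0.00022). Of 10 somite genes tested 5 were called, all lower, with Mesp2, which sets the next boundary, at 16.2 ± 1.87 CPM in control and 0.302 ± 0.0514 in KO (-5.69 ± 0.41, adjusted p = 1.03e-05). In the same day 3 KO libraries 5 of 6 neural tube genes tested were called, all higher, and the summed level of the list was 99.6 to 99.9 CPM against 13.3 to 15.2 in control. Most of the KO sum was Tubb3, at 41.6 CPM against 9.73 in control, and Olig2, at 37.75 CPM against 0. Nkx6-1 was lower in KO, at 0.173 CPM against 0.528, without a call. Neurog2, a neuronal factor, was at 0 in both groups. The part of this neural signal in the lower mesoderm levels was not tested.

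At day 5 the calls in KO were mostly higher. Of 12 specification genes 5 were called, all higher (median 1.25 against 0.01 over all genes), a share near the 43.5% of all genes called, including the retinoic acid synthase gene Aldh1a2 at 3.94 ± 0.720 CPM in KO and 0.397 ± 0.422 in control (3.28 ± 0.61, adjusted p = 0.00219). Of 10 Notch and clock genes 7 were called, all higher (median 1.20), with Lfng, the glycosyltransferase that modulates Notch in the clock, at 6.33 ± 1.54 and 0.546 ± 0.212 CPM (3.51 ± 0.37, adjusted p = 8.42e-05). The other lists were mixed: of 10 tail bud genes tested 2 were called higher and 1 lower (median 0.60), and of 10 somite genes 3 higher and 1 lower (median 0.52, or 0.14 with the gene that had a group at 0 set to its bound). The difference between the KO effects was called for 8 of 12 specification genes and 9 of 10 Notch and clock genes, all higher at day 5 (24.2% of all genes called). For Evx1 it was 5.64 ± 0.19 (adjusted p = 3.74e-07), although Evx1 in day 5 KO, at 20.2 ± 2.65 CPM, was far under the day 3 control level. In these day 5 KO libraries the neural tube genes summed to 32.4 to 44.4 CPM against 5.65 to 5.86 in control, and Pou5f1 was at 123 ± 58.0 against 19.6 ± 1.65 CPM. Most of the neural sum was Tubb3, at 26.9 CPM in KO and 4.27 in control. The part of neural or undifferentiated cells in the day 5 levels was not tested. The Hox list was mixed, with 1 of 14 called higher and 3 lower. Hoxa9 was higher (2.27 ± 0.57, adjusted p = 0.0125) and Hoxb5 lower (-2.15 ± 0.47, adjusted p = 0.0114).

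**Figure D3:**
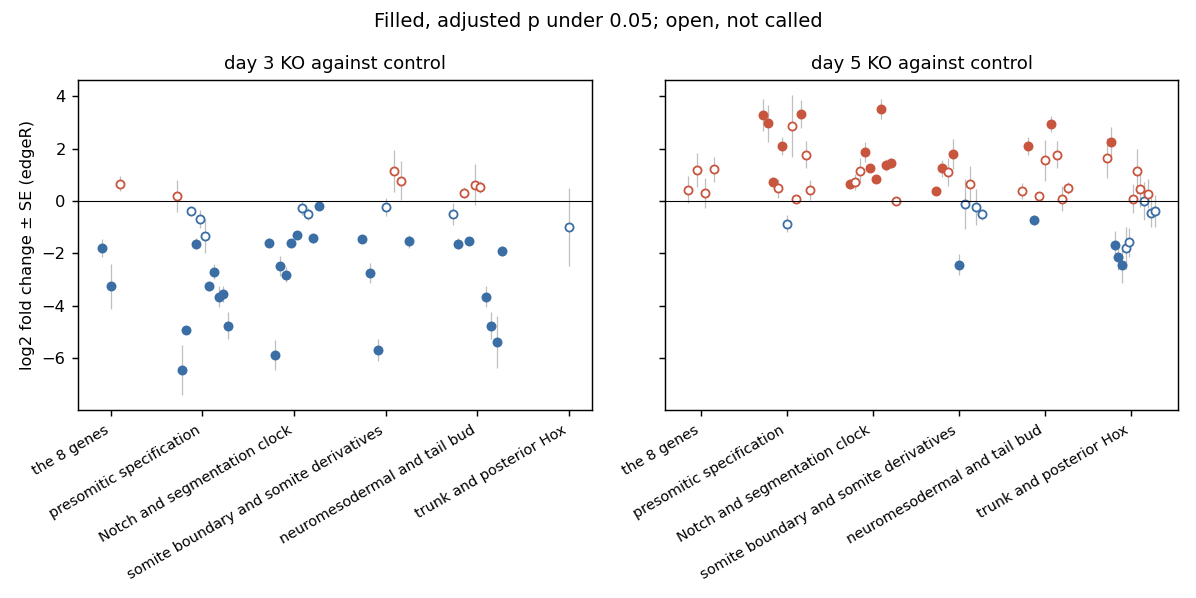
Log2 fold change ± SE (edgeR) of KO against control for the 8 genes and 5 lists at day 3 (left) and day 5 (right), filled where the adjusted p was under 0.05 and open where not. Genes not tested or with 3 or fewer counts in either group are not drawn, which leaves 3 of the 8 genes at day 3 and 4 at day 5. At day 3 all filled points are below 0, and at day 5 the filled points of the specification list and of the Notch and clock list are above 0.

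In day 10 KO against control 5.27% of all genes were called. The specification list and the Notch and clock list had 1 call each, unlike the Hox list above. More of their genes were called with IWR1 against KO, where 13.9% of all genes were called. In KO against control 1 of 12 specification genes was called, Aldh1a2 (1.78 ± 0.31, adjusted p = 0.0299), and 1 of 12 Notch and clock genes, Hes1 (-1.21 ± 0.22, adjusted p = 0.0321). With IWR1 against KO 5 of 12 specification genes were called, all higher, including Wnt3a at 10.7 ± 7.96 against 0.222 ± 0.0732 CPM (5.59 ± 0.95, adjusted p = 0.0186) and T at 16.7 ± 9.36 against 1.07 ± 1.07 CPM (3.98 ± 0.85, adjusted p = 0.0316). Msgn1, with 3 and 1 counts in these treated libraries, stayed at the floor where T and Wnt3a were higher. The Wnt feedback genes Axin2 and Dkk1 were at 32.1 ± 14.9 and 33.9 ± 19.4 CPM with IWR1. In KO they were at 13.2 ± 2.72 and 5.73 ± 0.0986 CPM. Cdx1, also a Wnt target, went the other way, at 0.131 ± 0.127 CPM with IWR1 and 0.5475 ± 0.426 in KO. Wnt pathway activity was not tested.

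The somite list had 8 of 17 tested called under IWR1 against KO, 7 higher and 1 lower (median 1.30 against 0.00 over all genes). Over all genes 13.9% were called in this comparison. Pax3, a factor of dermomyotome and dorsal neural tube, was at 19.7 ± 5.65 CPM against 0.440 ± 0.383 in KO (5.50 ± 0.63, adjusted p = 0.009). Of 12 Notch and clock genes 8 were called, all higher, with Lfng at 21.9 ± 1.17 against 4.37 ± 0.514 CPM (2.33 ± 0.23, adjusted p = 0.00675) and Dll3, a Notch ligand of presomitic mesoderm, at 7.48 ± 3.11 against 0.815 ± 0.123 (3.19 ± 0.41, adjusted p = 0.0114). Hes5, a Notch target of neural progenitors, was also higher (6.98 ± 0.75, adjusted p = 0.00811). In the same libraries all 8 of 8 neural tube genes were called higher, with a summed level of 159 to 219 CPM against 10.1 to 11.9 in KO and 18.1 in control, and no gene of that list was at 0. Most of the treated sum was Tubb3, at 128 ± 38.4 CPM against 7.59 ± 0.44 in KO. Pax3, Pax7, T, Wnt3a and the Notch genes are also used by neural or neuromesodermal cells, and the part of those cells in the higher levels was not tested.

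**Figure D4:**
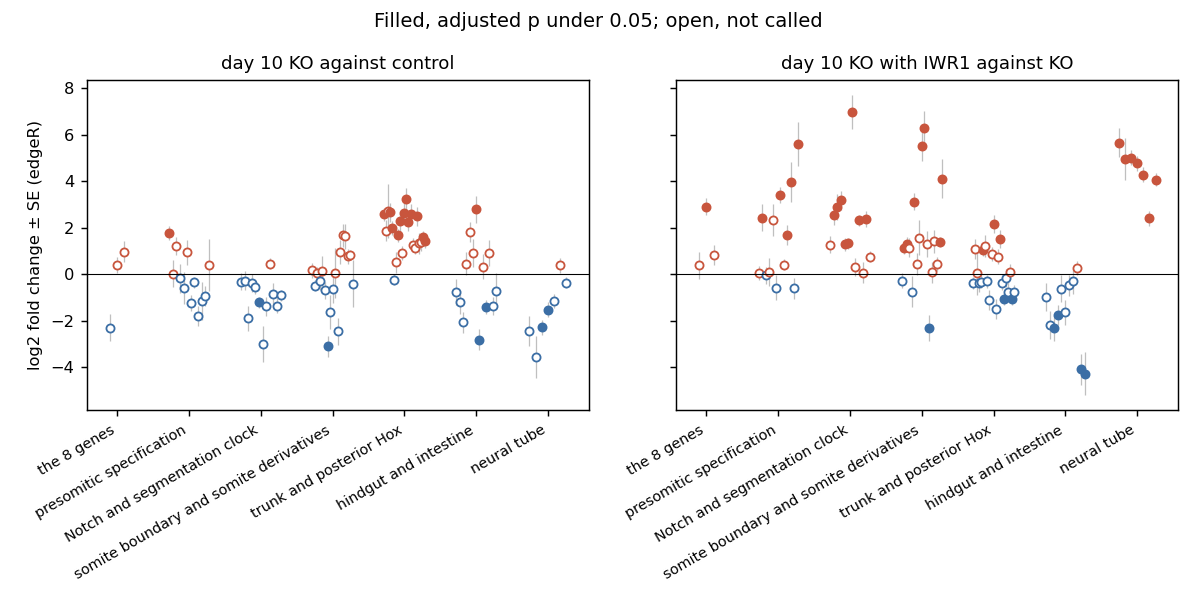
Log2 fold change ± SE (edgeR) at day 10 for the 8 genes and 6 lists, for KO against control (left) and KO with IWR1 against KO (right), filled where the adjusted p was under 0.05. Genes not tested or with 3 or fewer counts in either group are not drawn, which leaves 3 of the 8 genes, Meox1, Tcf15 and Cdx2. On the left most filled points are Hox genes above 0, and on the right the neural tube points are all filled and above 0.

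The genes whose levels ran most like each of these genes were found by Pearson's r of log2(CPM + 1), as a description over libraries that fall into a few groups. Over the 8 libraries of days 3 and 5, Cdx1 was most like Pes1 (r = 0.999) and Utp14a (0.996), Tcf15 like Nop58 and Ppa1 (0.997 each), Msgn1 like Zfp292 (0.983) and Fam210a (0.981), and Cdx2 like Rps6ka6 (0.996) and Man1c1 (0.995). Over the 6 libraries of day 10, Meox1 was most like Tesk2 (0.999) and Mest (0.998), Tcf15 like Nrg1 (0.995) and Appl1 (0.989), and Cdx2 like Klc3 (0.989) and Akap1 (0.985). None of these genes is on any of the lists used above.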

How the data were processed

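RNA was measured by paired-end sequencing of 14 libraries. Per the submitters' processing notes, kallisto 0.46.2 and the mm10 build were used. The deposited values are estimated counts per gene, given by the authors as whole numbers in a table for days 3 and 5 and another for day 10, and enter the fits as they are. The step from transcripts to genes is not described in the sources used here. All 14 value columns were matched to samples by name, and 35968 of the 36047 identifiers to a symbol.

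Each table was fitted separately with edgeR 4.0.16 in R 4.3.3, using filterByExpr, TMM and a two-sided quasi-likelihood F-test (robust). P-values were adjusted by Benjamini-Hochberg over every gene in the fit, and 0.05 was the threshold. The fits held 14430 genes (4 residual degrees of freedom, common biological coefficient of variation 0.0915) and 17022 genes (3 degrees of freedom, 0.248). The SE is the absolute log2 fold change over the square root of F. CPM use TMM-scaled totals. Where a group had no count, a floor of 3 counts over the group gave a bound, and where it had 1 to 3 counts the ratio of summed counts is given with an exact 95% interval. Both cover counting error only, as PCR reads are not independent molecules. A count of 3 in 1 library is 0.254 to 0.298 CPM at days 3 and 5 and 0.0621 to 0.0827 CPM at day 10.

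The 8 genes and the lists were chosen with earlier results of these data known, so no count over them is independent evidence. Genes named are the 8, up to 3 further genes of a list per comparison with the smallest unadjusted p, up to 2 genes per table most alike in level (at least 5 CPM), the germ layer markers, genes at 0 in a list, and Foxk1. Not every gene so chosen is reported here. Alternatives were DESeq2 1.42.0, RLE scaling, no low-count filter, a replicate block, the compared groups alone and leaving out each library. Tested on simulated counts, the fit recovered 47.8%, 79.1% and 89.4% of genes changed 1.5, 2 and 4 times at day 3 (14069 genes), and 0%, 31.3% and 80.3% for IWR1 against KO (16685 genes). Promoter windows are from RefSeq and gene positions from the GENCODE annotation of mm10.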

Additional observations from a re-analysis of the deposited data

Results flagged for a closer look

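The KO effect differed between days 3 and 5 for Msgn1 and Cdx1, by a test of the difference itself in the fit of days 3 and 5. For Msgn1 the adjusted p was 0.00162: KO had 0 counts against 111 in control at day 3, and 25 against 18 at day 5. For Cdx1 it was 0.00239: KO had 39 counts against 132 at day 3, and 15 against 1 at day 5. Each kept its call in all 12 alternative fits. The day 5 counts behind both are low.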

How the results depend on the processing

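Of the alternative values for single genes, 294 kept direction and side of the threshold, 10 lost the call, 18 gained it and 4 changed sign, and the cause was not tested. Leaving out each library in turn gave log2 fold changes of -0.95 to 1.06 for Cdx2 in IWR1 against KO, -0.57 to 1.00 for Cdx2 in day 5 KO, -0.32 to 1.46 for Msgn1 in day 5 KO and -4.61 to 0.005 for Meox1 in day 3 KO, whose fitted value rests on 3 counts. It gave 1 to 2 of the 8 genes called in day 5 KO, 1 to 2 in IWR1 against KO and 1 to 2 in IWR1 against control. DESeq2 called 0 of 7 tested in day 5 KO, 1 of 5 in day 10 KO and 3 of 5 in IWR1 against control. Over all genes it called 4355 of 15418, 1978 of 17371 and 3391 of 17371. Without the low-count filter, 1 of 8 was called in day 10 KO and 2 of 8 in IWR1 against control. Over all genes that fit called 1737 and 3093 of 24494. With the compared groups alone there were 0 of 3 tested in day 5 KO and 1 of 3 in day 10 KO. Over all genes these fits called 4354 of 13561 and 1202 of 16650. At days 3 and 5 same-numbered libraries did not deviate alike (correlation -0.022 to 0.05). At day 10 the correlation was 0.242 for IWR1 with control, -0.297 for KO with control and -0.322 for IWR1 with KO. With the replicate block the count of the 8 genes called stayed at 3 in day 3 KO, 1 in day 5 KO, 0 in day 10 KO and 1 in each IWR1 comparison. It went from 2 to 3 for the difference between the KO effects, where Cdx2 was added. A crossed pairing of the day 10 KO numbers, added after seeing the data, called 2 of 3 tested in IWR1 against control. Over all genes it called 3257, 7268 and 7182 in KO, IWR1 against KO and IWR1 against control, against 897, 2358 and 1553. Over all genes, calls at day 3 KO were 2520 to 2572 with a library left out, 3001 in DESeq2 and 7334 with the compared groups alone, against 4741. At day 10 they ranged with a library left out from 63 to 838 for KO against 897, from 548 to 3056 for IWR1 against KO against 2358, and from 280 to 2145 for IWR1 against control against 1553. At day 5 KO they were 4030 to 7565 against 6281, and for the difference between the KO effects 2049 to 5621, and 2321 in DESeq2, against 3496. In the simulation of IWR1 against KO, 31.3% of changes of 2 times were recovered, so most changes of that size were missed in the simulated counts. The simulation changed genes of any level and drew the spread from its trend with level. It therefore cannot give the share missed in the data or among these 8 genes.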
